A study of Saccharomyces cerevisiae with 33 samples.

Results

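The genes described here are the 9 chromosomal neighbours of the genes for the lipid regulators Opi1, Ino2 and Ino4, 3 beside each: *AIM17*, *SPO11* and *APM2* beside *OPI1*, *DPB4*, *KIN1* and *ECM18* beside *INO2*, and *YOL107W*, *ZEO1* and *SHR5* beside *INO4*. They are 9 of the 5449 genes tested, each measured by 1 probe set. They were chosen by their place on the chromosome and by their measured levels, since the log2 signals of strains with and without the neighbouring deletion were known when the set was drawn up. Each gene is therefore described by its values, without a p-value, in the strains that lack the gene beside it, where the counts past the threshold are also descriptions. P-values are given only for strains that by their labels still carry it and for growth conditions compared within 1 strain.

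Transcript levels were measured on 33 arrays, 3 for each of 11 groups of *Saccharomyces cerevisiae* grown in aerobic chemostats on minimal medium with added inositol and choline. The reference was the haploid prototroph CEN.PK113-7D, of mating type **a**. From it derive *opi1*Δ, the single deletions *ino2*Δ and *ino4*Δ, and the double deletion *ino2*Δ*ino4*Δ, with a loxP-Kan-loxP cassette in place of each deleted gene, and each genotype is 1 strain. All were grown under carbon (C) limitation, which gave 18 arrays, and under nitrogen (N) limitation, which gave 15. The C-limited *opi1*Δ cultures oscillated, and samples from the CO2 maximum and from the CO2 minimum form different groups. The labels do not say whether replicate arrays came from separate cultures, so p-values measure the spread between these arrays. A value is the log2 of the deposited signal intensity, and 5.47 is the background level on that scale, under which 95% of the probe sets for another species lie. In a culture, a lower signal from fewer transcribing cells and from less RNA per cell cannot be told apart.

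The deleted genes were checked first. *OPI1* lay between 4.91 and 5.43 on the 9 *opi1*Δ arrays and between 7.56 and 8.26 on the 6 reference arrays. Among the C-limited *ino* strains 4 arrays went against their labels. *INO4* was at 5.08 and 5.06 on replicates 2 and 3 labelled *ino2*Δ, a strain that should carry it, and at 6.64 on replicate 1 labelled *ino2*Δ*ino4*Δ, which should lack it. *INO2* was at 5.19 on replicate 3 labelled *ino4*Δ, against 6.34 and 6.18 on the other arrays of that group. Results of the C-limited *ino* strains that moved without these 4 arrays are given with and without them. A further 5 arrays deviated together from their groups (replicates 1 and 3 of *opi1*Δ at minimum CO2, replicate 1 of the N-limited reference, and replicates 1 and 3 of N-limited *ino2*Δ*ino4*Δ). Leaving out the 4 arrays keeps only replicate 1 of C-limited *ino2*Δ, and leaving out the 5 keeps only replicate 2 of *opi1*Δ at minimum CO2 and of the N-limited double deletion. Such a lone array is assumed to vary like the other groups, so the SE and p of those comparisons come from the spread of the other groups. The 6 genes that mark **a** cells were above background on all 33 arrays. Of the 4 genes that mark alpha cells, *MF(ALPHA)2*, which encodes a pheromone, was above background on no array, *SAG1* on all 33, *STE3* on 8 of the 9 *opi1*Δ and 23 of the 24 other arrays, and *MF(ALPHA)1* on 9 and 22 of them.

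Yeast genes lie close together, with short stretches of DNA between them that hold the end of one transcript and the start of the next. When an open reading frame is replaced by a marker cassette, the promoter and terminator of the cassette come to lie beside the genes on either flank. Opi1 represses, and the Ino2/Ino4 heterodimer activates, genes of phospholipid synthesis that carry the inositol-responsive promoter element.

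On chromosome VIII the order of the genes is *SPO11*, *AIM17*, *OPI1*, *APM2*, all transcribed from the same strand, so that *AIM17* and then *SPO11* follow the 3′ end of *OPI1* and *APM2* lies beyond its 5′ end. *SPO11* encodes the topoisomerase-like protein that makes the DNA double-strand breaks of meiosis, *AIM17* encodes a mitochondrial protein of unknown function, and *APM2* encodes a medium subunit of a clathrin adaptor complex. On chromosome IV *DPB4* and *KIN1* run towards the 3′ end of *INO2*. *YDR124W* starts on its other side, pointing away from it, and *ECM18* comes after that. Dpb4 is a subunit of DNA polymerase ε and of a chromatin remodelling complex, Kin1 is a protein kinase acting in exocytosis, and Ecm18 is a protein of unknown function. On chromosome XV *SHR5* and *ZEO1* run towards the 3′ end of *INO4*, with a tRNA gene between *ZEO1* and *INO4*, and *YOL107W* starts on the other side, pointing away. Shr5, also called Erf4, is a subunit of the palmitoyltransferase that modifies Ras2. Zeo1 is a peripheral plasma membrane protein of the cell integrity pathway, and the product of *YOL107W* is uncharacterised.

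*SPO11* was seen only where *OPI1* was absent. Its log2 signal was above the background of the array on all 9 *opi1*Δ arrays, from 6.29 to 7.07 with a median of 6.47, and on none of the other 24, where it ran from 5.01 to 5.41 with a median of 5.14. In signal intensity these ranges are 78.1 to 134 and 32.2 to 42.5. Under C-limitation *SPO11* stood at 6.37, 6.47 and 6.29 in *opi1*Δ at maximum CO2 and at 6.80, 6.30 and 7.07 at minimum CO2, against 5.28, 5.23 and 5.33 in the reference. Under N-limitation it stood at 6.51, 6.42 and 6.65, against 5.41, 5.18 and 5.37. No *opi1*Δ array overlapped the reference. Since the reference was not above background, the differences are bounds: with each reference array set to its own background level, *SPO11* was at least 1.84-fold higher at maximum CO2, at least 2.34-fold at minimum CO2 and at least 2.06-fold under N-limitation. At minimum CO2 the log2 difference as measured was 1.44 ± 0.12 (SE), and it was 1.02 without the 5 arrays that deviate together, which leaves replicate 2 of that group alone.

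*AIM17*, the gene between *OPI1* and *SPO11*, was lower in *opi1*Δ. It stood at 7.0, 7.10 and 7.12 at maximum CO2 and at 6.99, 7.64 and 7.02 at minimum CO2, all below the C-limited reference at 7.89, 7.87 and 7.99. The log2 difference was -0.84 ± 0.23 at maximum and -0.70 ± 0.23 at minimum CO2. Replicate 2 at minimum CO2 was the nearest to the reference, and with only that array left in its group, as the other 2 belong to the 5 that deviate together, the difference was -0.28. Under N-limitation *AIM17* stood at 7.63, 7.44 and 7.51 in *opi1*Δ and at 7.48, 8.08 and 8.0 in the reference, with a difference of -0.33 ± 0.23. There replicate 1 of the reference lay among the *opi1*Δ values, so the groups overlapped. Over all strains *AIM17* ran from 6.99 to 7.64 in *opi1*Δ and from 7.48 to 9.35 elsewhere.

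*APM2*, on the 5′ side of *OPI1*, stood close to the reference in *opi1*Δ. Its values were 6.62, 6.59 and 6.59 at maximum CO2 and 6.85, 6.75 and 6.84 at minimum CO2, with 6.66, 6.76 and 6.79 in the C-limited reference. Under N-limitation they were 6.96, 7.03 and 7.11 in *opi1*Δ and 6.98, 7.11 and 7.16 in the reference. The log2 differences were -0.14, 0.08 and -0.05, each ± 0.08 (SE). At maximum CO2 the *opi1*Δ arrays lay just below the reference without overlap. In the other comparisons the groups overlapped. The numbers of neighbours past the threshold of an adjusted p below 0.01 were 2 of 3 at maximum CO2, where 31.1% of all genes passed, 1 of 3 at minimum CO2, where 7.73% passed, and 1 of 3 under N-limitation, where 2.53% passed. These contrasts chose the genes, and the counts are given as a description only.

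The summed signal intensity of the 4 alpha-specific marker genes was 359 to 3107 on the *opi1*Δ arrays and 227 to 399 on the others. Of these, *MF(ALPHA)1* stood at 7.09 to 11.49 on the log2 scale in *opi1*Δ and 5.35 to 7.47 elsewhere, ranges that overlap. *MF(ALPHA)2*, *STE3* and *SAG1* also had overlapping ranges. The sum over the 6 **a**-specific genes was 2831 to 16050 in *opi1*Δ and 1527 to 11233 in the other strains. The part of these markers in the level of *SPO11* was not tested.

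**Figure D1:**
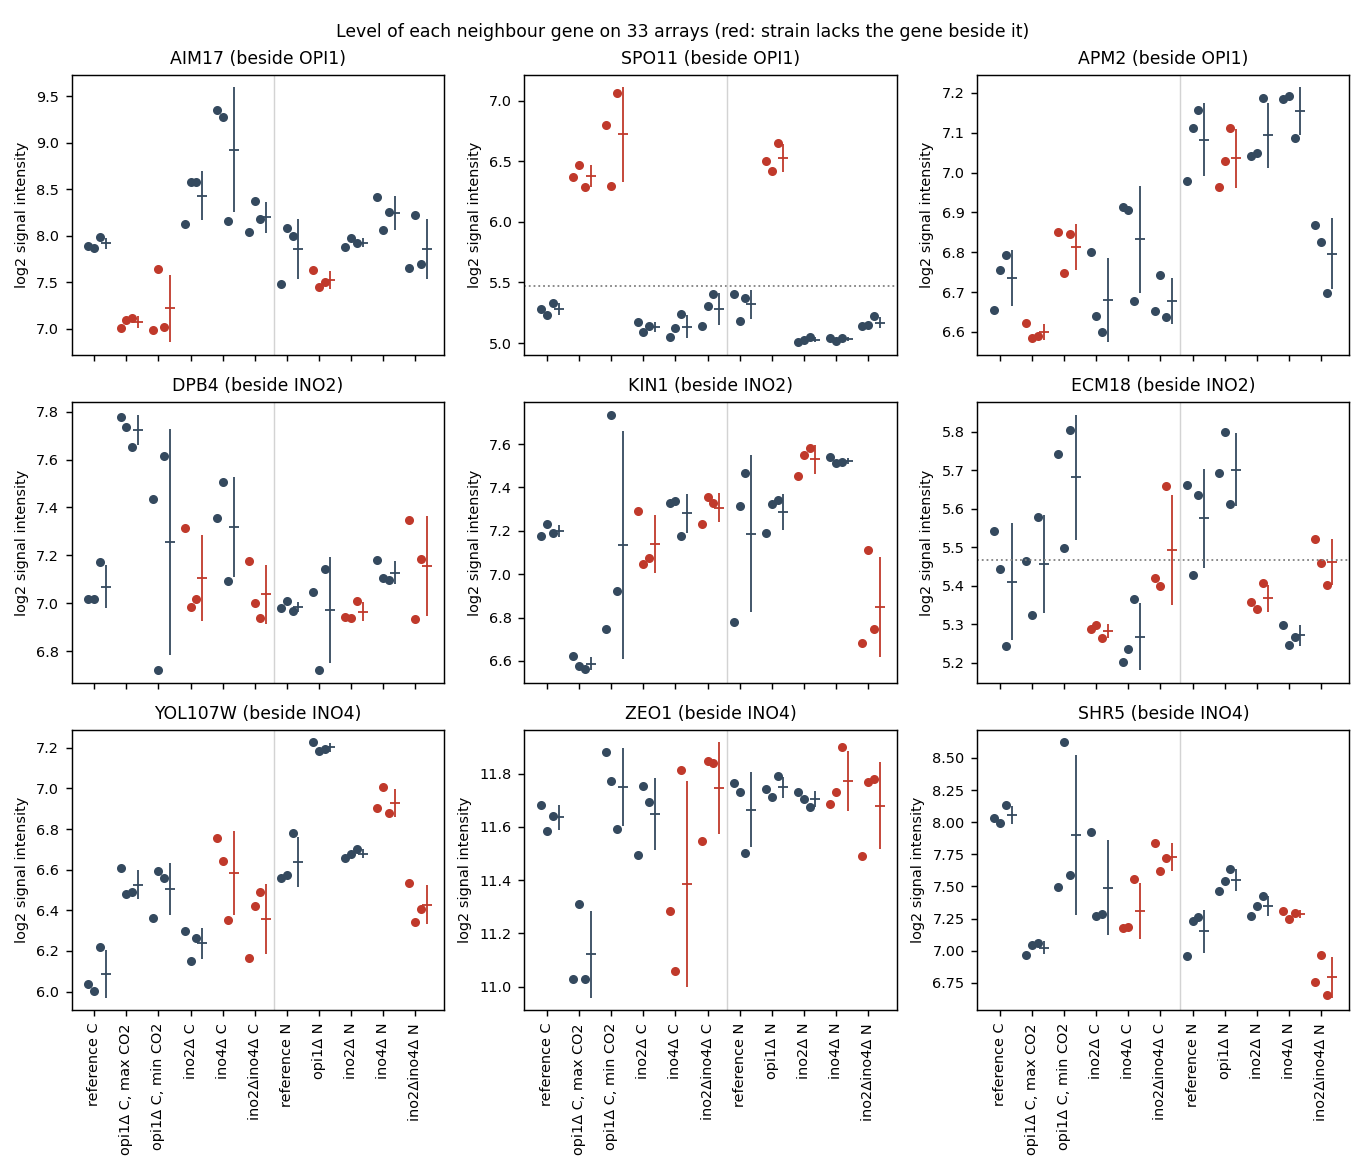
Log2 signal intensity (vertical axis) of each of the 9 genes on the 3 arrays of each of 11 groups (horizontal axis, C-limited groups left of the grey line), with the mean and SD to the right of the points, in red where the strain lacks the gene named in the panel title; the dotted line is the background level of 5.47. *SPO11* lies above that line on the 9 red arrays and below it on the other 24, while for the neighbours of *INO2* the red and dark points share 1 range.

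Beside *INO4* the values differed between the strains that lack it. *SHR5* stood at 7.18, 7.18 and 7.56 in C-limited *ino4*Δ, 7.84, 7.62 and 7.72 in the C-limited double deletion and 8.04, 7.99 and 8.13 in the reference, so that no array of either strain reached the reference. The log2 differences were -0.75 and -0.33, each ± 0.19 (SE), and -0.87 and -0.38, each ± 0.20, without the 4 arrays that go against their labels. Under N-limitation *SHR5* stood at 7.31, 7.25 and 7.29 in *ino4*Δ and at 6.76, 6.96 and 6.66 in *ino2*Δ*ino4*Δ, with 6.96, 7.23 and 7.26 in the reference. The differences were 0.13 and -0.36, each ± 0.19. The single and the double deletion thus lay on opposite sides of the mean of the N-limited reference, and both overlapped its range.

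*YOL107W*, on the 5′ side, was higher in *ino4*Δ. It stood at 6.75, 6.64 and 6.35 in C-limited *ino4*Δ and at 6.16, 6.42 and 6.49 in the C-limited double deletion, against 6.04, 6.0 and 6.22 in the reference. Under N-limitation it stood at 6.90, 7.01 and 6.88 in *ino4*Δ and at 6.53, 6.34 and 6.41 in *ino2*Δ*ino4*Δ, against 6.56, 6.57 and 6.78. All *ino4*Δ arrays lay above the reference of their limitation, and all N-limited *ino2*Δ*ino4*Δ arrays lay below it. The log2 differences were 0.50 and 0.27 under C-limitation and 0.29 and -0.21 under N-limitation, for the single and the double deletion in turn, each ± 0.10 (SE). Without the 4 arrays that go against their labels those under C-limitation were 0.61 and 0.37, each ± 0.09. The N-limited double deletion differed by -0.33 ± 0.14 without the 5 arrays that deviate together.

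*ZEO1* ran from 11.03 to 11.90 over all arrays. It stood at 11.29, 11.06 and 11.81 in C-limited *ino4*Δ, where replicate 3 is an array that goes against its label, and at 11.55, 11.85 and 11.84 in the C-limited double deletion, with 11.68, 11.58 and 11.64 in the reference. The difference in *ino4*Δ was -0.25 ± 0.14 with all arrays and -0.46 ± 0.11 without the 4 arrays. Under N-limitation it stood at 11.69, 11.73 and 11.90 in *ino4*Δ, 11.49, 11.77 and 11.78 in *ino2*Δ*ino4*Δ and 11.76, 11.73 and 11.50 in the reference, and the groups overlapped. Past the threshold were 2 of 3 neighbours in C-limited *ino4*Δ (13.4% of all genes), 0 of 3 in N-limited *ino4*Δ (0.551%), and none of the 6 neighbours of *INO2* and *INO4* in *ino2*Δ*ino4*Δ under C-limitation (0.569%) or under N-limitation (16.1%). These are again counts in the contrasts that chose the genes.

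The neighbours of *INO2* stood near the reference in the strains that lack it, with log2 differences between -0.34 and 0.34. *DPB4* stood at 7.31, 6.98 and 7.02 in C-limited *ino2*Δ and 7.17, 7.0 and 6.94 in the C-limited double deletion, with 7.02, 7.02 and 7.17 in the reference. Under N-limitation it stood at 6.94, 6.94 and 7.01 and at 7.35, 6.93 and 7.19 in those strains, with 6.98, 7.01 and 6.97 in the reference. Both limitations gave overlapping groups. In C-limited *ino2*Δ the difference was 0.04 ± 0.16 with all arrays and 0.24 ± 0.22 with replicate 1 alone, the array left without those that go against their labels. *KIN1* stood at 7.46, 7.55 and 7.58 in N-limited *ino2*Δ and at 6.68, 7.11 and 6.75 in the N-limited double deletion, with 6.78, 7.32 and 7.47 in the reference, which overlaps both. The differences were 0.34 and -0.34, each ± 0.17 (SE), and 0.14 ± 0.07 and -0.28 ± 0.10 without the 5 arrays that deviate together. Under C-limitation *KIN1* stood at 7.29, 7.05 and 7.07 in *ino2*Δ, 7.23, 7.36 and 7.33 in the double deletion and 7.18, 7.23 and 7.19 in the reference.

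*ECM18* was near the background level throughout. It ran from 5.20 to 5.81 and was above background on 12 of the 33 arrays. These were 3 of the 12 arrays labelled as without *INO2* and 9 of the 21 others. Its lowest values in the strains without *INO2* were those of C-limited *ino2*Δ, at 5.29, 5.30 and 5.26, against 5.54, 5.44 and 5.24 in the reference. In N-limited *ino2*Δ it stood at 5.36, 5.34 and 5.41, below the reference at 5.66, 5.43 and 5.64 without overlap (-0.21 ± 0.09). No fold is given where both groups were below background. Past the threshold were 0 of 3 neighbours in *ino2*Δ under C-limitation (0.826% of all genes) and 0 of 3 under N-limitation (0.606%).

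*YDR124W*, an uncharacterised gene, lies between *INO2* and *ECM18* but is not one of the 9. It was below background on every array that lacks *INO2* and in both references. In N-limited *opi1*Δ, where *INO2* is present, it stood at 6.72, 6.38 and 6.63, against 5.18, 5.32 and 5.44 in the reference, and was at least 2.13-fold higher (limma, adjusted p = 1.62e-12).

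The wider flanks give the setting of these values. Within 10 tested genes to each side of *OPI1*, leaving out the 3 neighbours, 4 of 17 genes passed the threshold in *opi1*Δ at maximum CO2 (*ECM29*, *YHL026C*, *OTU2* and *PRS3*), 0 at minimum CO2 and 1 under N-limitation. That gene, *RIM4*, encodes a regulator of meiosis and lies 2 tested genes beyond *SPO11*. It differed from the reference by 1.20 ± 0.26 there, by 0.08 ± 0.26 at minimum CO2 and by -0.62 ± 0.26 at maximum CO2. *NPR3*, which comes between *RIM4* and *SPO11* and takes part in nitrogen signalling, differed by -0.01, 0.35 and -0.35 in the 3 comparisons, each ± 0.12 (SE), and did not pass. Around *INO2* no flanking gene of 17 passed in *ino2*Δ under either limitation or in the C-limited double deletion. In N-limited *ino2*Δ*ino4*Δ 4 passed (*PDS1*, *MRX14*, *VBA4* and *ARO1*). Around *INO4* the count was 1 in C-limited *ino4*Δ (*SKM1*), 0 in N-limited *ino4*Δ and in the C-limited double deletion, and 3 in N-limited *ino2*Δ*ino4*Δ (*MCH4*, *PTH4* and *IZH4*). The median log2 change of the 17 genes lay between -0.07 and 0.15 in the 11 comparisons, where the median over all genes lay between -0.05 and 0.08. The shares of all genes that passed in each comparison are those given above. The genes named from these lists were picked out by their calls.

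**Figure D2:**
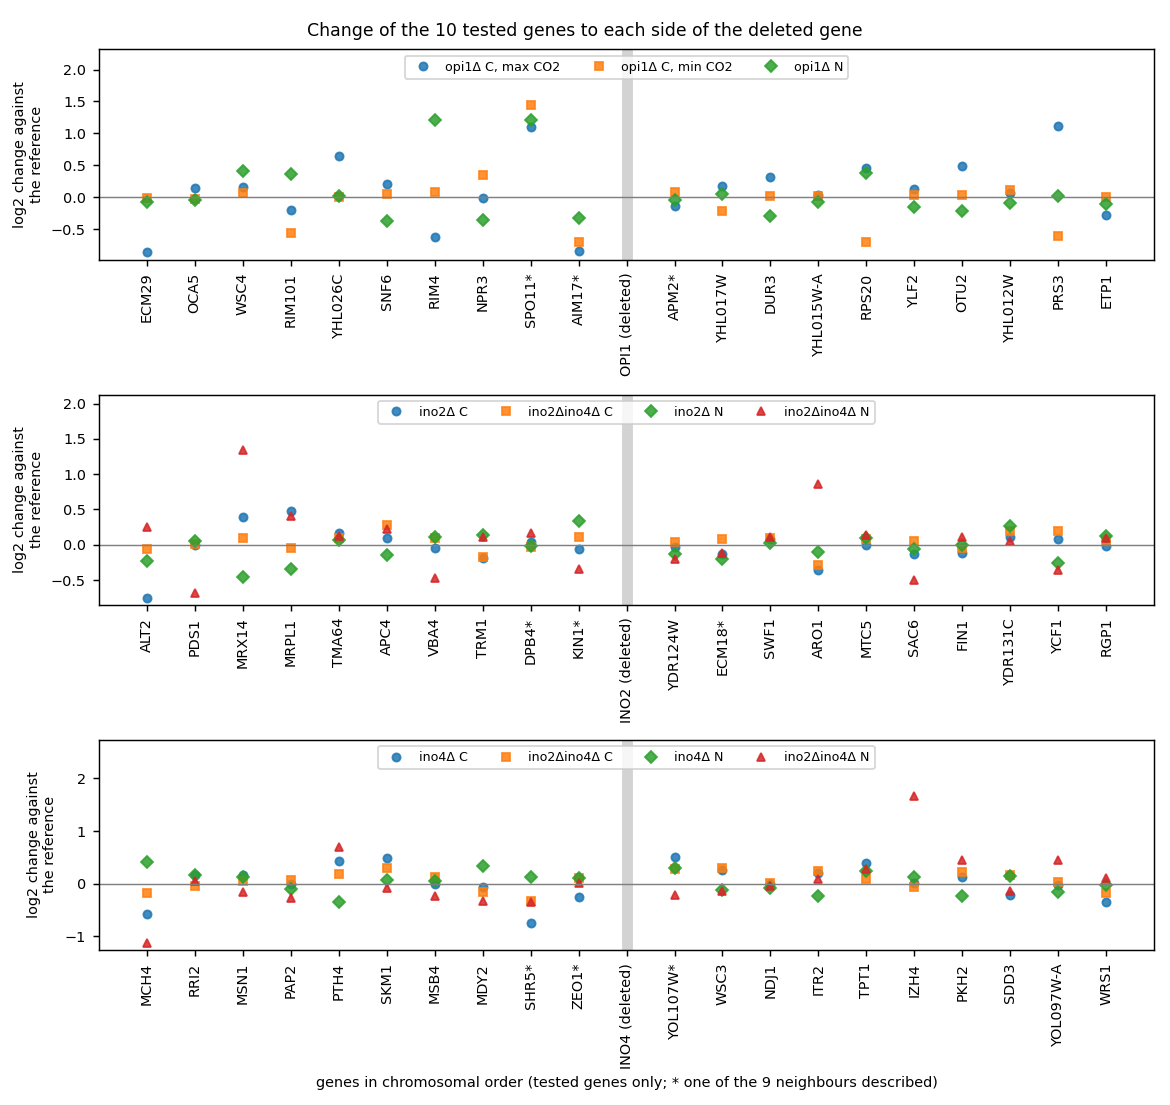
Log2 change against the reference of the same limitation (vertical axis) for the 10 tested genes to each side of *OPI1*, *INO2* and *INO4* in chromosomal order (horizontal axis), 1 symbol per strain and condition that lacks the gene. The points of *SPO11*, at 1.09 to 1.44, are differences from a reference that was not above background, for which the bounds are 0.88 to 1.23. *RIM4* is at 1.20 in N-limited *opi1*Δ.

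The neighbours were then compared in strains that by their labels carry the gene beside them, which asks how far their levels move with the other deletions. *INO4* was below background on replicates 2 and 3 of C-limited *ino2*Δ, as was *INO2* on replicate 3 of C-limited *ino4*Δ. The comparisons of those groups thus hold arrays on which the gene beside some neighbours was not seen. Of 48 values in strains that carry that gene by label, 9 passed the threshold. In *opi1*Δ at maximum CO2 5 of the 6 neighbours of *INO2* and *INO4* passed, where 31.1% of all genes did. *DPB4* rose, from 7.02, 7.02 and 7.17 in the reference to 7.78, 7.74 and 7.65 (0.65 ± 0.16, adjusted p = 0.00144). *YOL107W* rose, from 6.04, 6.0 and 6.22 to 6.61, 6.48 and 6.49 (0.44 ± 0.10, adjusted p = 0.00071). *SHR5* fell, from 8.04, 7.99 and 8.13 to 6.96, 7.04 and 7.06, the largest change of the 5 (-1.03 ± 0.19, adjusted p = 0.000114). For all of these genes the 3 *opi1*Δ arrays lay apart from the 3 reference arrays. *KIN1* fell, from 7.18, 7.23 and 7.19 to 6.62, 6.58 and 6.56 (-0.61 ± 0.17, adjusted p = 0.00498), and *ZEO1* fell, from 11.68, 11.58 and 11.64 to 11.03, 11.31 and 11.03 (-0.51 ± 0.14, adjusted p = 0.00332). These also did not overlap, but the call of *KIN1* was lost on leaving out any 1 of the 6 arrays (adjusted p 0.0135 to 0.0185) and that of *ZEO1* without replicate 1 or 3 of either group (0.011 to 0.02). With the methods' t-test the call of *ZEO1* was lost too (adjusted p = 0.0132). *ECM18* stood at 5.46 on average, against 5.41 in the reference.

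*YOL107W* passed in each of the 3 comparisons of *opi1*Δ by limma over all groups. None of the 3 calls held with the methods' t-test (adjusted p = 0.0111 at maximum CO2, 0.104 at minimum CO2 and 0.083 under N-limitation), and the last 2 did not hold in limma fits of only the groups compared (0.0781 and 0.0347). At minimum CO2 it stood at 6.36, 6.59 and 6.56 (0.42 ± 0.10, adjusted p = 0.00485) and was the only one of the 6 to pass, where 7.73% of all genes did. That call was lost without replicate 1 or 2 of the reference or replicate 3 of *opi1*Δ (adjusted p 0.0215 to 0.0287). Under N-limitation it stood at 7.23, 7.18 and 7.20, against 6.56, 6.57 and 6.78 (0.56 ± 0.10, adjusted p = 0.000348), again as the only one of 6, where 2.53% of all genes passed. It was higher than every reference array of the same limitation on all 9 *opi1*Δ arrays. Both C-limited comparisons share the reference arrays. *KIN1* at minimum CO2 differed by -0.07 ± 0.17 with all arrays and by 0.53 without the 5 arrays that deviate together. That value rests on replicate 2 alone, at 7.73, where the other 2 were at 6.75 and 6.92.

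In the *ino* strains 2 values of 30 passed. *AIM17* rose in C-limited *ino4*Δ, to 9.35, 9.27 and 8.16 from 7.89, 7.87 and 7.99 in the reference (1.01 ± 0.23, adjusted p = 0.00257). It was 1 of 6 genes, where 13.4% of all genes passed. The low array is replicate 3, which goes against its label, and without the 4 such arrays the change was 1.40 ± 0.19 (adjusted p = 4.37e-06). With all other arrays kept, the call was lost without replicate 1 of *ino4*Δ (0.80, adjusted p = 0.0368), without replicate 2 (0.84, adjusted p = 0.0335) and without replicate 1 or 2 of the reference (1.0 and 0.99, adjusted p = 0.0129 and 0.0128). It was also lost in a limma fit of only the groups compared (adjusted p = 0.0774) and with the methods' t-test (adjusted p = 0.175). *AIM17* stood at 8.12, 8.58 and 8.58 in C-limited *ino2*Δ, where the 2 higher arrays are those that go against their labels. The change was 0.51 ± 0.23 with them and did not pass. It was 0.21 for replicate 1 alone. It stood at 8.04, 8.37 and 8.18 in the C-limited double deletion (0.28 ± 0.23). *APM2* fell in the N-limited double deletion, to 6.87, 6.83 and 6.70 from 6.98, 7.11 and 7.16 (-0.29 ± 0.08, adjusted p = 0.00588). It was 1 of 3 genes, where 16.1% of all genes passed. A limma fit of only the groups compared (adjusted p = 0.2) and the methods' t-test (adjusted p = 0.145) did not call it. The call was lost without replicate 2 or 3 of the reference or replicate 3 of the mutant (adjusted p 0.0263 to 0.0446), and without the 5 arrays that deviate together (-0.31 ± 0.10, adjusted p = 0.0308).

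No neighbour passed in the other *ino* comparisons by limma. At an unadjusted p below 0.05 there were 2 of 6 in C-limited *ino2*Δ (*AIM17* and *SHR5*), 1 of 6 in N-limited *ino2*Δ (*SPO11*), 2 of 6 in N-limited *ino4*Δ (*ECM18* and *SPO11*) and 0 of 3 in the C-limited double deletion. *SPO11* was not above background in any of those strains, so no size is given. The share of all genes at an unadjusted p below 0.05 is not given here, so nothing is read from the counts at that cutoff.

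**Figure D3:**
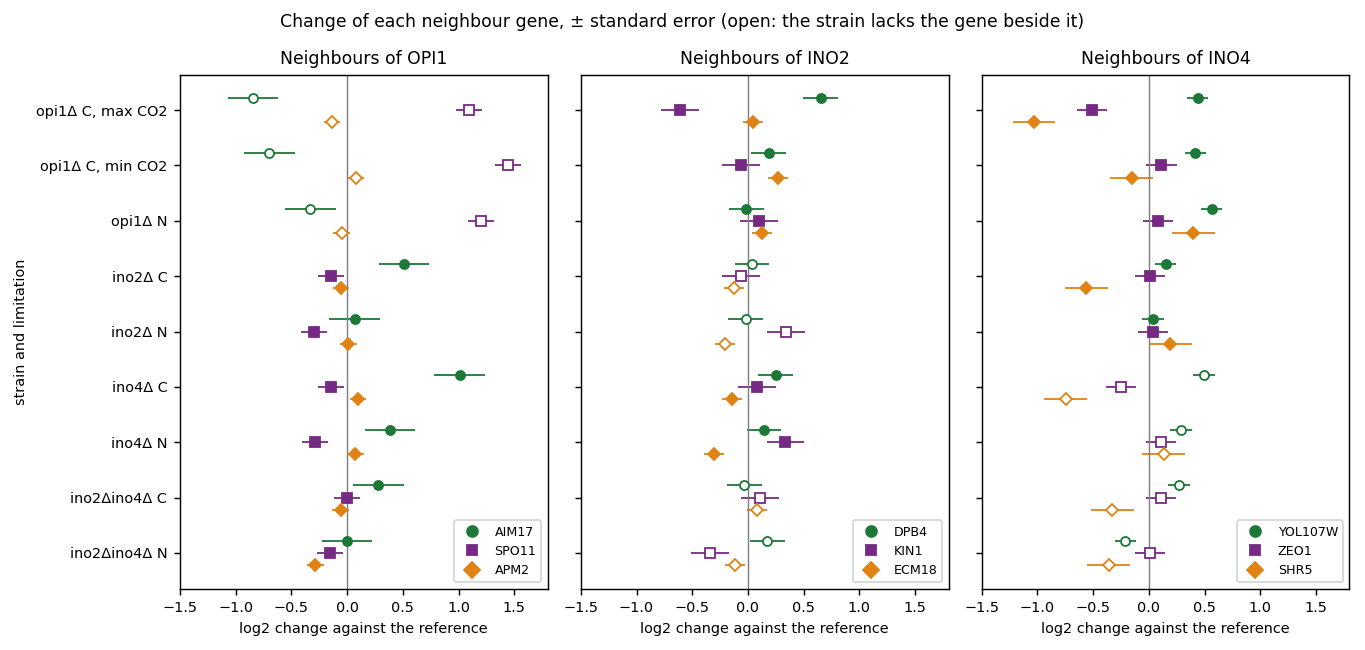
Log2 change against the reference of the same limitation (horizontal axis, ± SE) of each neighbour in each strain and condition (vertical axis), with open symbols where the strain lacks the gene beside it and filled symbols where it carries it. *YOL107W* lies between 0.42 and 0.56 in all 3 *opi1*Δ groups, and *AIM17* lies at -0.84 in *opi1*Δ at maximum CO2 and at 1.01 in C-limited *ino4*Δ.

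The limitations were compared within each strain, where by the labels both sides carry the same genes. In the reference 3 of 9 neighbours passed between N- and C-limitation, where 23.3% of all genes did. *APM2* was higher under N-limitation, at 6.98, 7.11 and 7.16 against 6.66, 6.76 and 6.79 (0.35 ± 0.08, adjusted p = 0.000806). *YOL107W* was also higher, at 6.56, 6.57 and 6.78 against 6.04, 6.0 and 6.22 (0.55 ± 0.10, adjusted p = 8.07e-05). *SHR5* was lower, at 6.96, 7.23 and 7.26 against 8.04, 7.99 and 8.13 (-0.90 ± 0.19, adjusted p = 0.000702). In none of these did the groups overlap. With the methods' t-test all 3 calls were lost (adjusted p = 0.0376 for *APM2*, 0.0319 for *YOL107W* and 0.0119 for *SHR5*). Those of *APM2* (adjusted p = 0.0292) and *YOL107W* (0.0109) were also lost in a limma fit of only the groups compared.

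The comparison in the deletion strains gave 6 calls of 36. In *opi1*Δ, with minimum CO2 as the C-limited side, *YOL107W* was the only one of 9 (0.70 ± 0.10, adjusted p = 2.77e-06), where 27.7% of all genes passed. In *ino2*Δ *APM2* (0.41 ± 0.08, adjusted p = 0.000122) and *YOL107W* (0.44 ± 0.10, adjusted p = 0.000948) passed, beside 21.3% of all genes. In *ino4*Δ the same 2 genes passed, *APM2* with 0.32 ± 0.08 (adjusted p = 0.00164) and *YOL107W* with 0.35 ± 0.10 (adjusted p = 0.00728), beside 22.3% of all genes. In *ino2*Δ*ino4*Δ *SHR5* passed (-0.93 ± 0.19, adjusted p = 0.000494), beside 25.8% of all genes. With the methods' t-test only the call of *YOL107W* in *ino2*Δ held. Without the 4 arrays that go against their labels the 2 calls in *ino2*Δ, with replicate 1 alone on the C-limited side, were lost (*APM2* 0.29, adjusted p = 0.0347, and *YOL107W* 0.38, adjusted p = 0.0182). So were the 2 in *ino4*Δ (*APM2* 0.24, adjusted p = 0.0131, and *YOL107W* 0.23, adjusted p = 0.0418). In *ino4*Δ *AIM17* then passed, lower under N-limitation (-1.07 ± 0.19, adjusted p = 9.22e-05, against -0.68 ± 0.23 with all arrays), and so did *ZEO1*, higher (0.60 ± 0.11, adjusted p = 0.000175, against 0.39 ± 0.14). The call of *SHR5* in the double deletion held (-0.88 ± 0.20, adjusted p = 0.00178). The call of *YOL107W* in *ino4*Δ was also lost on leaving out replicate 2 or 3 of the C-limited or any 1 of the N-limited *ino4*Δ arrays, and that of *APM2* there without C-limited replicate 3 or N-limited replicate 2. Without replicate 2 of *opi1*Δ at minimum CO2 the calls numbered 10, with *DPB4* (-0.55), *KIN1* (0.45) and *SPO11* (-0.41) added in *opi1*Δ and *KIN1* (-0.46) in the double deletion. With that array alone in its group *KIN1* in *opi1*Δ differed by -0.45, in the other direction. *SHR5* in *opi1*Δ then differed by -1.07, against -0.35 ± 0.19 with all arrays. *YOL107W* in the double deletion stood at 6.53, 6.34 and 6.41 under N-limitation and at 6.16, 6.42 and 6.49 under C-limitation, which overlap.

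Whether a deletion moved a neighbour differently under N- than under C-limitation was tested for the 21 values not used to choose the genes. None passed by limma with all arrays. Without the 4 arrays that go against their labels *AIM17* in *ino4*Δ passed (-1.01 ± 0.25, adjusted p = 0.00416, against -0.62 ± 0.32 with them). In all genes the shares that passed were 4.73% for *opi1*Δ, 0.514% for *ino2*Δ, 3.43% for *ino4*Δ and 7.6% for *ino2*Δ*ino4*Δ. The share of all genes at an unadjusted p below 0.05 is not given here. At that cutoff there were 2, *SHR5* in *ino2*Δ (0.76 ± 0.27, adjusted p = 0.141, and 0.33 without the 4 arrays) and *APM2* in the double deletion (-0.23 ± 0.11, adjusted p = 0.155). For the neighbours of the deleted genes these differences are descriptions: 0.37 ± 0.32 for *AIM17* in *opi1*Δ, 0.88 ± 0.27 for *SHR5* in *ino4*Δ (1.01 without the 4 arrays) and -0.48 ± 0.14 for *YOL107W* in the double deletion (-0.58 without them). None is given for *SPO11*, which was not above background in either reference.

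Both CO2 phases of *opi1*Δ carry the same deletion, so all 9 neighbours could be tested between them. The paper describes sampling the oscillating cultures at both phases, but the labels do not say which arrays share a culture. The phases were compared as unpaired groups, and arrays from a shared culture would not be independent. At maximum against minimum CO2 3 of 9 passed, all lower, where 45.4% of all genes passed. *ZEO1* stood at 11.03, 11.31 and 11.03 against 11.88, 11.77 and 11.59 (-0.63 ± 0.14, adjusted p = 0.000346), with no overlap. *SHR5* stood at 6.96, 7.04 and 7.06 against 7.49, 8.62 and 7.59 (-0.88 ± 0.19, adjusted p = 0.000406), also with no overlap. *KIN1* stood at 6.62, 6.58 and 6.56 against 6.75, 7.73 and 6.92 (-0.55 ± 0.17, adjusted p = 0.00796). All 3 calls were lost in a limma fit of only the groups compared (adjusted p = 0.0106 for *ZEO1*, 0.0627 for *SHR5* and 0.142 for *KIN1*). They were also lost with the methods' t-test (adjusted p = 0.0292, 0.142 and 0.242 in turn). Replicate 2 at minimum CO2 was the highest of its group for *SHR5* and *KIN1*. Without it *KIN1* changed by -0.25 ± 0.13 (adjusted p = 0.119) and *SHR5* by -0.52, and the call of *KIN1* was also lost without any 1 of the maximum-CO2 arrays (adjusted p 0.0183 to 0.0239) or without the 4 arrays that go against their labels (adjusted p = 0.0124). Without the 5 arrays that deviate together, which keeps only replicate 2 at minimum CO2, *SHR5* differed by -1.60, *KIN1* by -1.15 and *DPB4*, which had not passed with all arrays (0.47 ± 0.16), by 1.0. *SPO11* did not pass (-0.35 ± 0.12, adjusted p = 0.0135), but it did with arrays centred on their median (-0.44, adjusted p = 0.000586), as did *APM2* and *ECM18*, all lower at maximum CO2. Against replicate 2 alone *SPO11* differed by 0.08, in the other direction. *AIM17* differed by -0.14 ± 0.23 and did not pass, and it differed by -0.56 against that array alone.

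The order of the 11 group means shows how much of each gene's range is resolved by 3 arrays. For *SPO11* the 3 *opi1*Δ groups came first, at 6.72 ± 0.39 (SD) at minimum CO2, 6.53 ± 0.11 under N-limitation and 6.38 ± 0.09 at maximum CO2, and the next group, the N-limited reference, was at 5.32 ± 0.12. The 3 *opi1*Δ groups overlapped one another and were apart from all others. For *AIM17* the order ran from C-limited *ino4*Δ at 8.93 ± 0.67 to *opi1*Δ at maximum CO2 at 7.07 ± 0.06, and 1 step of 10 between neighbouring groups separated their ranges, that between C-limited *ino2*Δ*ino4*Δ and N-limited *ino2*Δ. For *YOL107W* N-limited *opi1*Δ (7.20 ± 0.02) and N-limited *ino4*Δ (6.93 ± 0.07) stood apart at the top, and the C-limited reference was lowest at 6.09 ± 0.12. For *APM2* the N-limited groups other than *ino2*Δ*ino4*Δ stood above all C-limited groups without overlap. For *KIN1* *opi1*Δ at maximum CO2 was apart at the bottom, at 6.59 ± 0.03, and for *DPB4* that group was apart at the top, at 7.72 ± 0.06. *ECM18* had 1 such step. For *ZEO1* and *SHR5* no 2 neighbouring groups in the order had separate ranges, although *SHR5* ran from 6.79 ± 0.16 in N-limited *ino2*Δ*ino4*Δ to 8.05 ± 0.07 in the C-limited reference.

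The genes whose pattern was most like that of each neighbour were found by the Pearson correlation of log2 signals over the 33 arrays. The arrays share strains and limitations, and the values are descriptions. *SPO11* was most like *CHO1* (0.93), *YIP3* (0.92) and *INO1* (0.90). *CHO1* and *INO1* encode phosphatidylserine synthase and inositol-3-phosphate synthase, both among the genes under Ino2/Ino4 and Opi1. *SPO11* was above background only on the 9 *opi1*Δ arrays, so these correlations rest on the *opi1*Δ difference that helped choose it. Shared regulation was not tested. *AIM17* was most like *DSC3* (0.86), *PYK2* (0.85), which encodes a pyruvate kinase isoform, and *LPP1* (0.82), a lipid phosphate phosphatase gene. *APM2* was most like *ERF2* (0.94), which encodes the catalytic partner of Shr5, *DAP2* (0.93) and *MPS1* (0.93). *SHR5* was most like *LPX1* (0.93), *LSC1* (0.92) and *AYR1* (0.92), and *KIN1* was most like *HER1* (0.95), *VID28* (0.93) and *PTC6* (0.92). For *DPB4* the genes were *APN1* (0.88), *LYS12* (0.87) and *RPL23A* (0.86), for *YOL107W* *IDS2* (0.84), *MKS1* (0.83) and *SEC20* (0.82), and for *ZEO1* *DOA1* (0.83), *MUB1* (0.80) and *TSA1* (0.79). *ECM18*, mostly below background, gave the lowest values (*DGR1* 0.79, *YER078W-A* 0.77 and *RSF1* 0.75). None of the 9 neighbours had another of the 9 among its 3 most similar genes.

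Within the *OPI1* locus the correlation over the 33 arrays was -0.92 between *SPO11* and *OPI1*, 0.67 between *AIM17* and *OPI1* and -0.74 between *AIM17* and *SPO11*, while *APM2* had -0.16 with *SPO11* and 0.13 with *AIM17*. The 9 *opi1*Δ arrays carry the first of these values, since *OPI1* was near background on them and *SPO11* was below background on all others. The values of *AIM17* with *OPI1* and *SPO11* also hold this strain difference, as *AIM17* ran from 6.99 to 7.64 on the *opi1*Δ arrays and from 7.48 to 9.35 elsewhere. Beside *INO2* the value was -0.66 between *DPB4* and *KIN1*, with 0.37 and -0.11 between them and *INO2*. Beside *INO4* no pair of the 4 genes reached 0.3 in either direction, the highest being 0.27 between *ZEO1* and *SHR5*.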

How the data were processed

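Signals of Affymetrix Yeast Genome 2.0 arrays were normalised together by the authors with PLIER (version not given in the sources used here) and deposited as log2 values, 1 per probe set, which were used unchanged. Array medians ran from 7.14 to 7.44 and precision is limited by having 3 arrays per group. Of 10928 probe sets, 5498 paired with 1 gene through a probe table, with 12 symbols updated, 3683 were not listed there, and 1746 of another species gave the background level (5.39 to 5.53 per array). For 47 genes the probe set with the highest mean was used. Gene order and strand came from the RefSeq gene table.

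All arrays were fitted in 1 model with a term per group (limma 3.58.1, R 4.3.3, 22 residual and 2.95 prior degrees of freedom), with Benjamini-Hochberg adjustment over 5449 genes and a threshold of 0.01. The fit was tested on simulated data. A fold is given as a bound where 1 group was below each array's background. The members and lists were chosen with earlier results of these data known. Named are the 9 members, the deleted genes, the genes next to them, and the 3 genes most similar to each member; other flanking genes were named after their calls were seen. Alternatives were median centring, quantile normalisation, a constant of 16 before the log, a filter on dim genes, the methods' t-test, fits of only the groups compared, limma with trend and robust settings, averaged probe sets, the replicate number as a block, arrays left out and other thresholds. Figures were drawn with matplotlib 3.10.9.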

Additional observations from a re-analysis of the deposited data

Results flagged for a closer look

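*SHR5* lay on opposite sides of the reference in *ino2*Δ under C- and N-limitation, although neither difference passed (limma, adjusted p = 0.139 and 0.685). On the log2 scale it was below every reference array under C-limitation (7.92, 7.27 and 7.29 against 8.04, 7.99 and 8.13) and above every one under N-limitation (7.27, 7.35 and 7.42 against 6.96, 7.23 and 7.26). The N-limited minus the C-limited change was 0.76 ± 0.27 (SE), and the difference did not pass the test (limma interaction, adjusted p = 0.141). Replicates 2 and 3 under C-limitation, the lower values, are arrays whose *INO4* level goes against their label. Without the 4 arrays of that kind, which leaves replicate 1 alone, the C-limited difference was -0.13, against -0.56 ± 0.19 with them, and the difference between limitations was 0.33 (adjusted p = 0.936).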

How the results depend on the processing

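No member's value that passed the threshold in the fit of all arrays changed direction under any alternative. *KIN1* between limitations of *opi1*Δ, which did not pass there (0.15 ± 0.17), differed by 0.45 without replicate 2 at minimum CO2. With that replicate alone in its group it differed by -0.45. Results of the other flanking genes under the alternatives are not given here. The number of neighbours past the threshold was 6 of 33 in contrasts of their own deletion, 9 of 48 in those of another deletion, 3 of 9 between limitations of the reference, 6 of 36 between limitations of the deletion strains and 3 of 9 between CO2 phases. With only the groups of each comparison in the fit these were 3, 5, 1, 5 and 0, and with the methods' t-test 2, 3, 0, 1 and 0. At an unadjusted p below 0.05 that t-test gave 3 neighbours between limitations of the reference and 2 between phases, and the smaller fit gave 3 between phases. Fewer arrays enter those fits. Between the phases the count was 6 with centred arrays, 6 after quantile normalisation and 7 at an adjusted p below 0.05, and 5 with the replicate number as a block; for another deletion it was 3 at an adjusted p below 0.001. Between limitations of the deletion strains it was 10 at an adjusted p below 0.05 and 11 without the 5 arrays that deviate together. The cause of the differences between scalings was not tested. Leaving out each array in turn gave 4 to 8 calls for the own deletion, 5 to 12 for another deletion (5 without replicate 1 of the C-limited reference), 3 to 3 between limitations of the reference, 4 to 10 between those of the deletion strains (10 without replicate 2 of *opi1*Δ at minimum CO2) and 2 to 4 between phases. The replicate block changed no other of these 5 counts. The shares of all genes under the alternatives and at the unadjusted p are not given here. The counts of neighbours under them are therefore descriptions only. No comparison had all 3 correlations of same-numbered arrays over 0.1, and arrays were not paired in the main fit. These correlations cannot show whether same-numbered arrays share a culture.

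Among single values, those in contrasts of the own deletion moved by less than 1 residual SD of the gene, pooled over the 11 groups, 509 times over the alternatives. They moved further 15 times. A constant of 16 brought the difference of *SPO11* to 0.85, 1.15 and 0.95. *ECM18* and, outside *opi1*Δ, *SPO11* lay at the limit of what the arrays measure.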
